A study of Mus musculus with 6 samples.

Results

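The HOX genes of cultured mouse chondrocytes, the cells that make cartilage, were examined in Nf2-knockout and control cultures. The genes were taken by name: every row of the deposited expression table whose symbol is Hox followed by the cluster letter a, b, c or d and a number, with antisense names left out. This gave 39 of 55401 genes, which is 11 in the HOXA cluster, 10 in HOXB, 9 in HOXC and 9 in HOXD. The study sequenced poly(A) RNA from 6 libraries of primary chondrocytes from cartilage, described by the series as cultured with differentiation. The 3 control libraries carried the floxed Nf2 gene (Nf2f/f) without its deletion, and the 3 Nf2-knockout libraries carried the deletion in the same floxed background. The Cre line or promoter behind the deletion, the part of the skeleton that gave the cartilage and the age of the animals are not given in the sources used here. Whether the replicates were separate animals or cultures is not stated, and the p-values therefore measure only the spread between these libraries. The treatment label of the Nf2-knockout samples names TCF21 overexpression, which differs from their titles, and the titles were followed.

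HOX genes encode homeodomain transcription factors that record the position of a cell along the body axis and along a limb. They lie in 4 clusters, and each gene belongs to 1 of 13 paralog groups, numbered from the 3′ end of the cluster to the 5′ end. Genes of low number are active toward the head, those of high number toward the tail, and in limbs the 5′ genes of HOXA and HOXD are used in turn from the shoulder or hip outward, with group 13 in the hand and foot. Head cartilage made by cranial neural crest in front of the second pharyngeal arch forms without HOX expression. Cells taken into culture often keep the HOX pattern of the place they came from. Nf2 encodes merlin, which acts upstream of the Hippo kinases, whose targets YAP and TAZ work on DNA through TEAD factors.

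The clusters lie, in GRCm38, at chr6:52155590-52260880 (HOXA), chr11:96194316-96368256 (HOXB), chr15:102921103-103036852 (HOXC) and chr2:74668310-74765142 (HOXD). At the 5′ end of HOXA, neighbouring genes had very different transcript levels. Hoxa13, the last gene, was nearly silent, and Hoxa11 and Hoxa10 next to it were among the highest HOX genes. The 250 bases upstream of their RefSeq starts, and of that of Hoxa9, are shown because the level steps between these neighbours. All are on the minus strand of GRCm38.p6, at chr6:52260881-52261130, chr6:52245811-52246060, chr6:52240855-52241104 and chr6:52227371-52227620 in that order. Where RefSeq gave several starts for a gene, the most upstream one is shown. Capitals mark matches on either strand to GGAATG (the TEAD core), TGATTNAT (a PBX and HOX composite site), TATAAA (the TATA box), CCAAT (the CCAAT box) or GGGCGG (the GC box).

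Hoxa13: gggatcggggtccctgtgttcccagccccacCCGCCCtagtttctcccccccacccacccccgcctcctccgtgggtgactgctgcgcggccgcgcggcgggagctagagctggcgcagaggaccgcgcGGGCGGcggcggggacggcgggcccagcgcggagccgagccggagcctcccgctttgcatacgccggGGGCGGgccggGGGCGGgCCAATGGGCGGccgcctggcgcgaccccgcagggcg
Hoxa11: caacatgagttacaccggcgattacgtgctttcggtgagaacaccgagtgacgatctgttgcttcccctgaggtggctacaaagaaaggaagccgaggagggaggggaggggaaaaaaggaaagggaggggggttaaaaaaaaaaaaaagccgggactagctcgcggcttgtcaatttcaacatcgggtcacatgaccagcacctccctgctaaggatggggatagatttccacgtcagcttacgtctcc
Hoxa10: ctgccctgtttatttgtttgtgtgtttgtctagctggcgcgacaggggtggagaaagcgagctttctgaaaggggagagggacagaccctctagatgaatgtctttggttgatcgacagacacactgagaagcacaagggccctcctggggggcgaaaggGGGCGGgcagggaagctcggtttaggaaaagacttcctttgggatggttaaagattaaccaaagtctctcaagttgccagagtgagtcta
Hoxa9: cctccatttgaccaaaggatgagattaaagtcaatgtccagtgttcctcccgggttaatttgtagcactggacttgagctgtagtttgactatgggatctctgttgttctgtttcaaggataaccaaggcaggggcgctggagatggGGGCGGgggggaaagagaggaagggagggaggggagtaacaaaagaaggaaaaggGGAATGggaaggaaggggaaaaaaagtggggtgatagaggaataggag

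The Hoxa13 window held 80.0% G or C, 35 CpG pairs, 5 GC boxes and 1 CCAAT box, which lies directly beside a GC box. The Hoxa11 window held 52.0% G or C and none of the 5 motifs, and 98 of its bases lie in annotated exons of Hoxa11os, which runs the other way, or of Gm28032. The Hoxa10 window held 51.6% G or C and 1 GC box. Upstream of Hoxa10 a TATA box and a CCAAT box were matched only at RefSeq starts that are not shown. The Hoxa9 window held 49.6% G or C, 1 GC box and 1 TEAD core. RefSeq windows were matched for 22 HOX genes (24 windows). Over 32851 windows of the same length from all genes, 12.6% held a TEAD core, 2.82% the composite site, 12.4% a TATA box, 33.8% a CCAAT box and 32.7% a GC box. Among the 24 HOX windows 1 held a TEAD core, 2 the composite site, 4 a TATA box, 14 a CCAAT box and 10 a GC box. The median G and C content was 58.6% in HOX windows and 52.4% in all. These matches describe letters and do not show binding.

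Values per library are given below in the order of replicates 1, 2 and 3, with the Nf2-knockout libraries first and the controls after them. Nf2 itself had 4592, 6351 and 6503 counts in the Nf2-knockout libraries and 7448, 7153 and 6979 in the controls. Counts over the whole gene do not show which exons were read, so the share of intact Nf2 transcript was not tested. The Nf2 level fell by 0.41 on the log2 scale (SE 0.087, adjusted p = 0.0305 by edgeR's quasi-likelihood test). That call was lost without any 1 of the 6 libraries. Libraries held 50906043 to 63748798 counts. The chondrocyte genes Col2a1 and Sox9 were present in all libraries, at 16.4 to 72.1 and 3.27 to 5.80 FPKM (fragment counts scaled by gene length and by library size), and Acan, the cartilage proteoglycan, at 0.445 to 1.80. The fibroblast and bone collagen gene Col1a1 stood at 328 to 461 FPKM. In cultures of mixed cells, fewer cells of a type and less RNA per cell cannot be told apart.

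The cultures carried a posterior HOX pattern in both groups. Of the 39 genes, 14 reached 1 FPKM in all 6 libraries, 23 reached it in no library, and 4 (Hoxb1, Hoxb13, Hoxd1 and Hoxd12) had no count at all. The 14 were 5 of 11 HOXA genes, 5 of 9 HOXC genes, 3 of 9 HOXD genes and 1 of 10 HOXB genes. All 4 genes of paralog group 9 and all 3 of group 10 were among them, and 2 of 3 of group 11. Groups 4, 5, 6, 7 and 8 gave 1 gene each, and groups 1, 2, 3, 12 and 13 gave none.

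**Figure D1:**
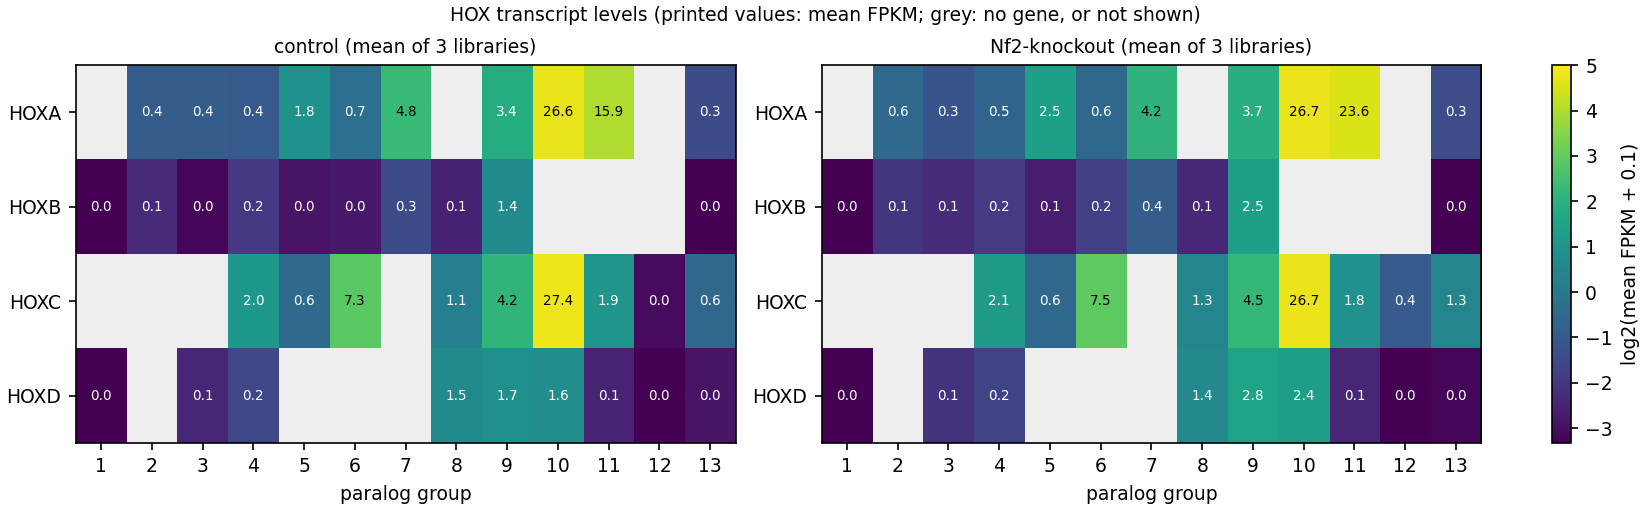
Mean FPKM of each HOX gene in control (left) and Nf2-knockout (right) libraries, 3 each. Rows are clusters and columns are paralog groups 1 to 13, colour is log2(mean FPKM + 0.1), and grey cells have no gene or a gene that is not shown. Hoxa10, Hoxa11 and Hoxc10 stand out in both panels. Groups 12 and 13 other than Hoxc13 (0.601 FPKM in control and 1.31 in Nf2-knockout libraries) and most of HOXB are dark.

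Groups 9 to 13 made up 80.2% ± 2.73 (SD, n = 3) of the summed HOX FPKM in Nf2-knockout libraries and 79.1% ± 1.31 in controls. Groups 4 to 8 gave 18.0% and 19.7%, and groups 1 to 3 gave 1.74% and 1.24%. By cluster, HOXA held 52.9% of the sum in Nf2-knockout libraries and 51.2% in controls, HOXC 38.2% and 42.0%, HOXD 5.88% and 4.83%, and HOXB 3.02% and 1.99%. Hoxa10, Hoxa11 and Hoxc10 alone gave 63.9% ± 4.20 in Nf2-knockout libraries and 64.9% ± 2.07 in controls. For each of these shares the libraries of the 2 groups overlapped. Shares based on library-scaled counts (CPM) in place of FPKM put groups 9 to 13 at 80.6% and 79.4%.

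The 39 genes summed to 122.8, 113.7 and 125.7 FPKM across the Nf2-knockout libraries (replicates 1, 2 and 3) and to 107.1, 108.8 and 107.0 across the controls. On this scale the groups did not overlap. In CPM the means were 331.5 ± 12.8 and 321.3 ± 4.29 (SD, n = 3) and the groups overlapped. The deposited FPKM, as log2(FPKM + 0.1), put the median of 14117 genes past an FPKM filter 0.093 higher in Nf2-knockout libraries. Over all 27103 genes with a count that median was 0.066. The count model put the median of its 18218 tested genes at -0.01 on the log2 scale, so fold changes below come from the counts.

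Of the 39 genes, 29 had enough counts to be tested. Of these, 1 rose and 0 fell. Over all genes tested, 4.11% rose and 5.18% fell (9.29% of 18218 genes changed), so 1 of 29 is not above the background. Without any 1 of the 6 libraries, or with no filter on low counts, 0 HOX genes passed edgeR's test, with 2 to 5 at an unadjusted p under 0.05. Over all genes those fits called 629 to 1186 without 1 library and 1337 without the filter, against 1693 in the main test. At an unadjusted p under 0.05 stood 3 HOX genes, Hoxa11 and Hoxc13 among them, against 24.8% of all genes. The median log2 fold change of the 29 was 0.009, with 15 higher and 14 lower, and that of all genes was -0.01. Libraries of the groups did not overlap in CPM for 4 tested HOX genes with the Nf2-knockout higher, among them Hoxa5, Hoxa11 and Hoxd10, and 1 with the control higher (Hoxa7). Over all genes those shares were 15.5% and 17.4%, or 32.9% in either direction. Under DESeq2 3 HOX genes passed, Hoxa11 and Hoxc12 among them (13.3% of 19709 genes did).

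**Figure D2:**
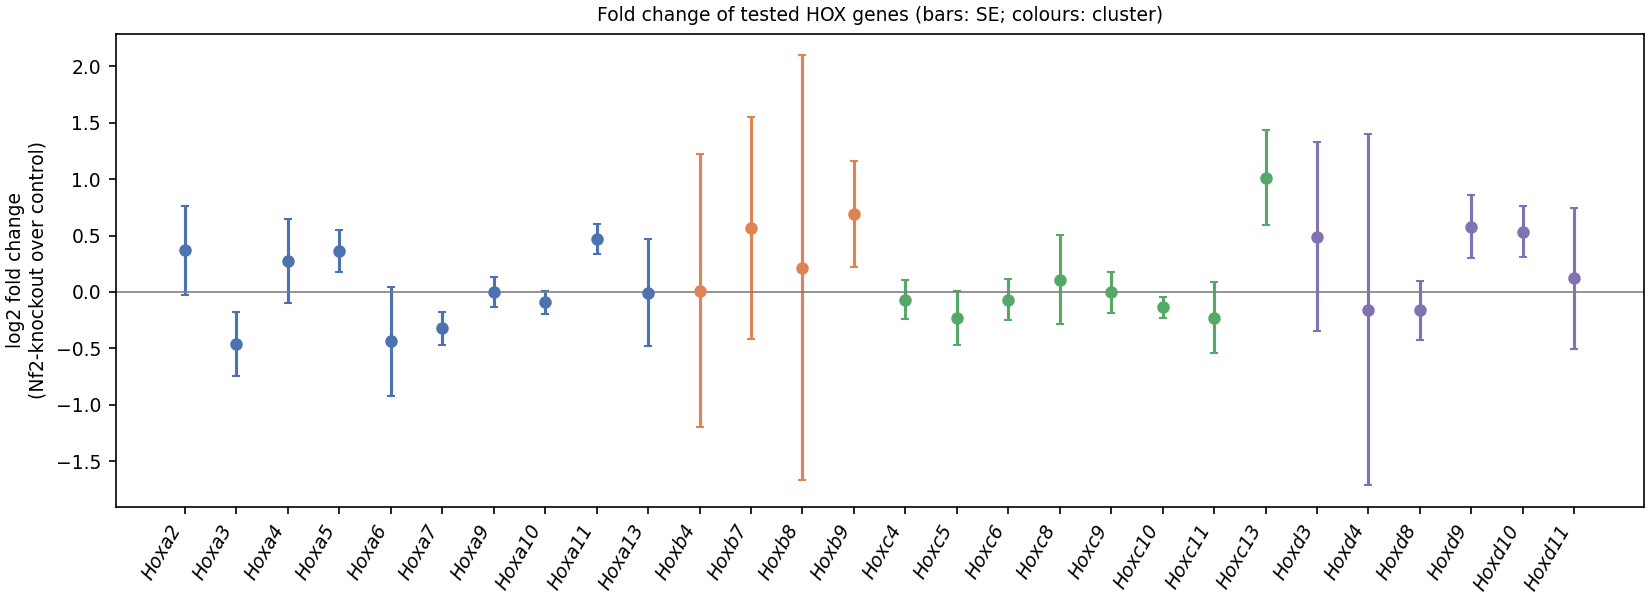
Log2 fold change of Nf2-knockout over control for tested HOX genes, in cluster order, coloured by cluster. Bars are the SE, and none of the genes drawn passed the test. Hoxc13 at 1.01 is the highest point drawn, and the highly expressed genes Hoxa10 and Hoxc10 lie near 0 with short bars.

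Group 10 genes pattern the lumbosacral spine and the upper segment of the limb. Hoxc10, the highest HOX gene, stood at 27.0, 24.5 and 28.6 FPKM in the Nf2-knockout libraries and 27.5, 26.4 and 28.2 in the controls. Hoxa10 stood at 26.7, 28.4 and 25.0 in Nf2-knockout libraries and 25.3, 29.6 and 24.7 in controls. The groups overlapped for both genes, and of the 27103 genes with a count Hoxc10 ranked 1873 and Hoxa10 1904 by mean FPKM. Their log2 fold changes were -0.14 (SE 0.091, adjusted p = 0.413 by edgeR) and -0.09 (SE 0.103, adjusted p = 0.647 by edgeR). Hoxd10 was far lower, at 2.30, 2.26 and 2.78 FPKM against 1.46, 1.97 and 1.29. Its groups did not overlap, yet its log2 fold change of 0.54 (SE 0.230) did not pass (adjusted p = 0.206 by edgeR).

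Group 11 genes shape the forearm, the lower leg and the kidney. Hoxa11 stood at 27.6, 22.6 and 20.6 FPKM in the Nf2-knockout libraries and at 15.1, 17.1 and 15.5 in the controls. Every Nf2-knockout library was above every control, in FPKM and in counts (3557, 3519 and 3338 against 2344, 2423 and 2344). The log2 fold change was 0.47 (SE 0.133) and missed the threshold (adjusted p = 0.0751 by edgeR). DESeq2 gave 0.49 with an adjusted p of 0.0215, and limma on log2(FPKM + 0.1) gave 0.56 with 0.0413. Hoxa11os, the antisense transcript over Hoxa11, covers 800 of the 2287 exon bases of Hoxa11 (35.0%). It had 414, 764 and 528 counts in Nf2-knockout libraries and 392, 308 and 255 in controls (log2 fold change 0.73, adjusted p = 0.113 by edgeR, 0.0454 by DESeq2). Whether the libraries kept the strand is not given, so reads over the shared bases cannot be told apart, and their part in the Hoxa11 difference was not tested. Hoxc11 stood at 2.12, 1.24 and 1.89 FPKM against 1.47, 1.63 and 2.64, with overlapping groups. Hoxd11, the partner of Hoxa11 in the forearm and named here after its values were seen, reached no more than 0.138 FPKM.

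**Figure D3:**
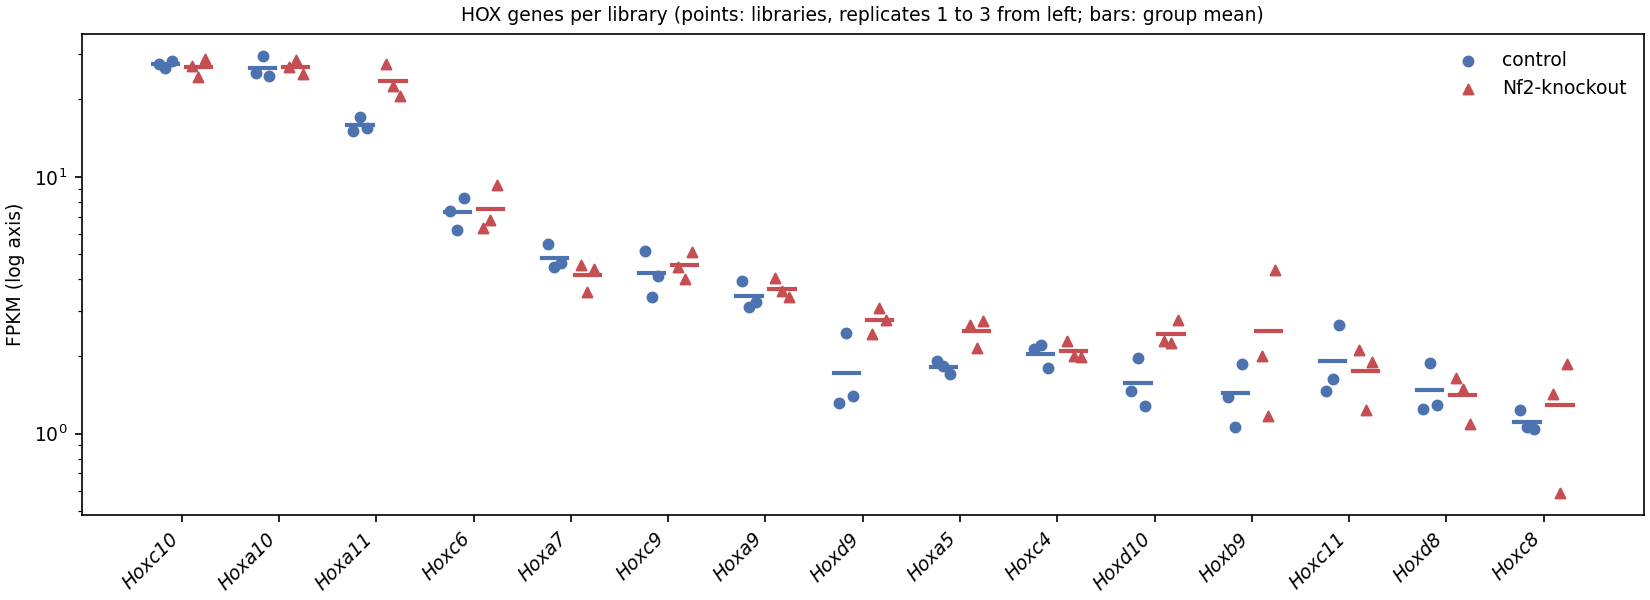
FPKM, on a log axis, of the 15 HOX genes with a mean of at least 1 FPKM in each library, ordered by mean level. Blue circles are control and red triangles Nf2-knockout libraries (replicates 1 to 3 from the left), and bars are group means. The groups are apart for Hoxa11, Hoxa5 and Hoxd10, and Nf2-knockout replicate 3 lies alone for Hoxb9.

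Group 9 genes act along the trunk and at the level where limbs form. Hoxc9 stood at 4.47, 3.99 and 5.09 FPKM in Nf2-knockout libraries and 5.13, 3.42 and 4.10 in controls. Hoxa9 stood at 4.05, 3.58 and 3.39 against 3.92, 3.12 and 3.24. Both genes had overlapping groups and log2 fold changes of -0.00. Hoxd9 stood at 2.45, 3.08 and 2.78 FPKM against 1.32, 2.46 and 1.41 (log2 fold change 0.58, SE 0.278, adjusted p = 0.254 by edgeR). Control replicate 2 reached the level of the Nf2-knockout libraries and the others did not. Hoxb9 was the one HOXB gene above 1 FPKM in all libraries, at 2.00, 1.17 and 4.35 against 1.39, 1.06 and 1.87. Its log2 fold change of 0.69 (SE 0.472, adjusted p = 0.430 by edgeR) became 0.04 without Nf2-knockout replicate 3.

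Groups 4 to 8 mark neck and thoracic levels. Hoxc6, the highest of them, stood at 6.31, 6.81 and 9.27 FPKM in Nf2-knockout libraries and 7.37, 6.22 and 8.27 in controls. Hoxa7 stood at 4.52, 3.56 and 4.39 against 5.47, 4.46 and 4.61, a log2 fold change of -0.32 (SE 0.147, adjusted p = 0.230 by edgeR). Its groups overlapped in FPKM and did not overlap in CPM. Hoxa5, needed for the lung and for the pattern of neck vertebrae, stood at 2.64, 2.16 and 2.74 FPKM against 1.91, 1.83 and 1.71. Its groups did not overlap on either scale, with a log2 fold change of 0.37 (SE 0.186, adjusted p = 0.282 by edgeR). Hoxc4 stood at 2.30, 2.01 and 1.99 FPKM against 2.14, 2.20 and 1.80. Hoxd8 stood at 1.64, 1.50 and 1.09 against 1.24, 1.88 and 1.29, and Hoxc8 at 1.42, 0.589 and 1.86 against 1.24, 1.06 and 1.04. The groups overlapped for these 3 genes, whose log2 fold changes lay between -0.16 and 0.11.

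The HOX genes under a mean of 1 FPKM had means over all libraries from 0 to 0.955. The highest were Hoxc13, at 1.53, 0.882 and 1.52 FPKM against 0.832, 0.301 and 0.671, and Hoxa6, with a mean of 0.653. Hoxc13, known for hair and nail, had a log2 fold change of 1.01 (SE 0.422, adjusted p = 0.193 by edgeR). Its groups overlapped in CPM and did not overlap in FPKM. Its neighbour Hoxc12, named after its values were seen, had 7, 45 and 41 counts in Nf2-knockout libraries and 0, 4 and 0 in controls. It had too few counts for the edgeR test. DESeq2 gave a log2 fold change of 4.36 (SE 1.43, adjusted p = 0.0216), which rests on 4 control counts, and edgeR with no filter gave 4.23 (adjusted p = 0.169). The group 13 genes of the limb tip, also named after their values were seen, were low: Hoxa13 averaged 0.279 FPKM and Hoxd13 0.022. Hoxd3 and Hoxd4 are uncertain, since 62.3% and 52.3% of their exon bases are shared with genes of the same strand, among them each other. Hoxd4 was listed with 0, 56 and 88 counts against 70, 70 and 0.

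HOXB levels differed widely among the libraries of each group, a pattern singled out after its values were seen. Summed counts over the cluster were 337, 261 and 1299 in the Nf2-knockout libraries and 308, 210 and 536 in the controls. Without Hoxb9 they were 47, 56 and 504, and 64, 41 and 217. All 8 HOXB genes with a count had their highest CPM in Nf2-knockout replicate 3, and among the controls all 8 were highest in replicate 3. In each of the other clusters no library held more than 3 of the genes' highest values. The 4 tested HOXB genes (Hoxb4, Hoxb7, Hoxb8 and Hoxb9) had log2 fold changes from 0.01 to 0.69, none past the test.

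**Figure D4:**
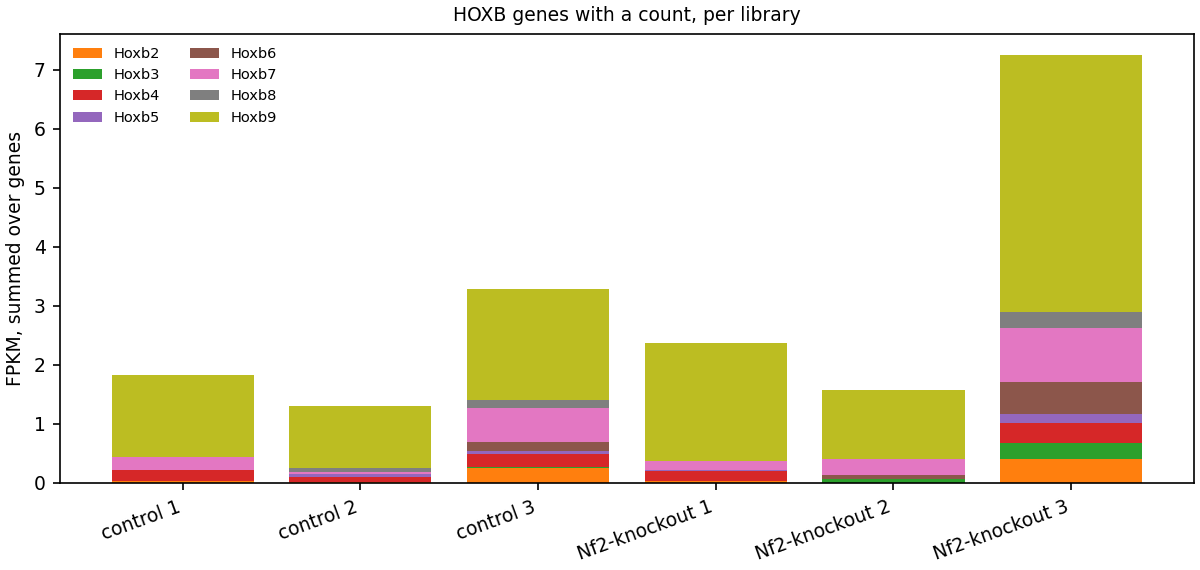
Summed FPKM of the 8 HOXB genes with a count in each of the 6 libraries, stacked by gene. Nf2-knockout replicate 3 (7.25 FPKM) and control replicate 3 (3.27 FPKM) are the tallest bars of their groups, and the other libraries lie between 1.31 and 2.37.

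Markers of other cells moved with some of these libraries. The 10 pericyte and smooth muscle markers summed to 657, 634 and 1063 CPM across the Nf2-knockout libraries, in order of replicate. Across the controls they summed to 499, 448 and 449. Of the 10, 3 rose and 1 fell, where 4.11% of all genes rose and 5.18% fell. By gene, 5 of the 10 were higher and 5 lower in Nf2-knockout libraries, with a median log2 fold change of 0.20. The CPM sum of 14 chondrocyte markers was 1804, 1942 and 1032 against 874, 1291 and 1213, with 2 risen and 1 fallen. Gene by gene, 7 of the 14 were higher and 7 lower in Nf2-knockout libraries, with a median log2 fold change of -0.06. Nf2-knockout replicate 3 was thus the highest Nf2-knockout library for pericyte markers and the lowest for chondrocyte markers. Control replicate 3 was not set apart from the other controls in either sum. The CPM sum of 15 macrophage and myeloid markers was 121, 91.2 and 50.9 against 174, 472 and 230, and 6 of the 15 fell. The 8 fibroblast and perichondrium markers summed to 13288, 14495 and 13643 CPM against 14819, 15635 and 17458, without overlap, and 1 of the 8 fell. Control replicate 3 had the highest fibroblast sum of the controls, and Nf2-knockout replicate 3 lay between the others of its group. For 7 osteoblast markers the sum was 10505, 10511 and 8304 CPM against 9893, 11118 and 8196, with overlap, and none rose or fell. In both groups replicate 3, the library with the most HOXB counts, had the lowest osteoblast sum. The part of these cells in the HOX differences was not tested.

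PBX, MEIS and PKNOX proteins are the homeodomain partners that give HOX proteins much of their choice of DNA site. All 9 of their genes were tested and none passed edgeR's test, with 2 at an unadjusted p under 0.05 (24.8% of all genes) and a median log2 fold change of -0.004. DESeq2 called none of the 9. Pbx2 averaged 8.11 ± 0.61 FPKM in Nf2-knockout libraries and 7.61 ± 0.29 in controls (SD, n = 3). Meis3 averaged 6.13 ± 0.17 and 7.01 ± 0.45 (log2 fold change -0.30, adjusted p = 0.127 by edgeR), without overlap in CPM.

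Other position-dependent transcription factors were set beside the HOX genes. Of 30 limb factors 27 were tested, 2 rose and none fell, against 4.11% and 5.18% of all genes tested, with a median log2 fold change of 0.061. Hand2, which polarises the early limb bud, rose from 1.76 ± 0.53 to 4.33 ± 0.40 FPKM (log2 fold change 1.20, SE 0.246, adjusted p = 0.0287 by edgeR). Msx2, a homeobox gene of limb and skull mesenchyme, rose from 0.567 ± 0.095 to 1.61 ± 0.51 FPKM (log2 fold change 1.39, SE 0.297, adjusted p = 0.0321 by edgeR). Each of these calls held in 1 of the 6 fits that left out a library. The limb factors at the highest level were Twist1 (47.3 FPKM in Nf2-knockout libraries, 56.2 in controls), Pitx1 (48.6 and 39.3) and Tbx15 (41.4 and 48.5), none past the test.

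Pitx1 and Tbx4 are the hindlimb determinants and Tbx5 the forelimb one, and Tbx4 and Tbx5 were chosen after their values were seen. Pitx1 stood at 50.1, 49.9 and 45.9 FPKM against 37.3, 37.7 and 42.9 (log2 fold change 0.21, adjusted p = 0.234 by edgeR). Tbx4 stood at 11.5, 10.4 and 10.8 FPKM against 10.0, 9.41 and 8.72 (log2 fold change 0.12, adjusted p = 0.529 by edgeR). Tbx5 was lower, at 3.06, 2.71 and 3.71 FPKM against 2.35, 2.25 and 2.19 (log2 fold change 0.38, adjusted p = 0.154 by edgeR). In FPKM, a scale whose median over genes was higher in Nf2-knockout libraries, the groups did not overlap for any of these 3 genes. In CPM they overlapped for Pitx1 and Tbx4, and over all tested genes 32.9% had no overlap in CPM. None of the 3 genes passed the test. All 3 genes were thus detected in every library beside the posterior HOX genes.

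**Figure D5:**
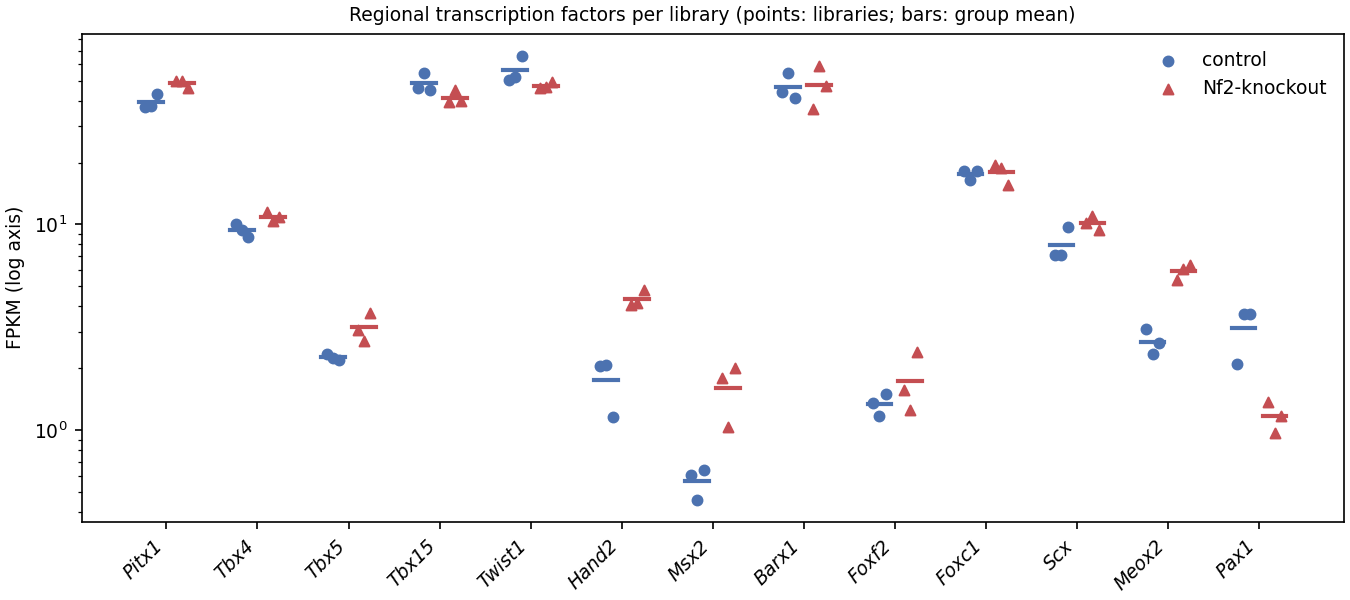
FPKM, on a log axis, of limb, head and axial transcription factors in each library, with bars at the group means. Blue circles are control and red triangles Nf2-knockout libraries. Pitx1 and Tbx4 exceed Tbx5 in all 6 libraries, and the groups lie well apart for Hand2, Msx2, Meox2 and Pax1, the 4 that passed the test.

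Of 26 head and neural crest factors 14 were tested and none passed edgeR's test, with 2 at an unadjusted p under 0.05 (24.8% of all genes) and a median of -0.17. Barx1, a factor of jaw, joint and stomach mesenchyme, was high at 47.5 ± 11 and 46.6 ± 7.2 FPKM, and Foxf2 averaged 1.74 and 1.34. Of 16 somite and axial factors 8 were tested, of which 1 rose and 1 fell (4.11% and 5.18% of all genes). Meox2, a somite and limb muscle homeobox gene, rose from 2.70 ± 0.38 to 5.93 ± 0.53 FPKM (log2 fold change 1.03, SE 0.155, adjusted p = 0.0107 by edgeR, called in all 6 fits that left out a library). Pax1, a marker of the vertebral sclerotome and shoulder girdle, fell from 3.14 ± 0.91 to 1.17 ± 0.20 FPKM (log2 fold change -1.53, SE 0.259, adjusted p = 0.0160 by edgeR, called in 4 of the 6). Foxc1, the highest of the list, averaged 17.9 and 17.7 FPKM.

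Polycomb and Trithorax proteins hold HOX genes silent or active. All 28 of their genes were tested and none passed edgeR's test, with 5 at an unadjusted p under 0.05 (24.8% of all genes) and a median of -0.10. Rbbp7 averaged 40.7 and 39.3 FPKM in Nf2-knockout and control libraries, Rbbp4 16.5 in both, and Bmi1 13.9 and 15.1.

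Retinoic acid and CDX factors switch HOX clusters on in the embryo. Of 22 such genes 15 were tested, 1 rose and 3 fell, with a median log2 fold change of -0.27. Of all genes tested 4.11% rose and 5.18% fell, with a median of -0.01. Rarg, a retinoic acid receptor prominent in cartilage, rose from 14.6 ± 0.34 to 21.8 ± 1.2 FPKM (log2 fold change 0.48, SE 0.083, adjusted p = 0.0169 by edgeR, called in 3 of the 6 fits that left out a library). Rdh10, which oxidises retinol, fell from 3.16 ± 0.22 to 2.04 ± 0.044 FPKM (log2 fold change -0.74, SE 0.123, adjusted p = 0.0149 by edgeR, called in 3 of the 6). Gdf11, a signal that sets the trunk-to-tail HOX transition, fell from 5.38 ± 0.73 to 3.51 ± 0.46 FPKM (log2 fold change -0.72, SE 0.151, adjusted p = 0.0307 by edgeR, called in 1 of the 6). The macrophage marker counts given above also differed between these groups, and their part was not tested.

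The clusters also hold other annotated genes, mostly antisense and non-coding. With Evx1 and Evx2, which lie outside the ends of HOXA and HOXD and had no counts, these number 48. Of the 48, 14 were tested and none passed edgeR's test. Of the 14, 12 were higher and 2 lower in Nf2-knockout libraries, with a median log2 fold change of 0.62, and 1 (Hoxa11os) had an unadjusted p under 0.05. Over all genes tested, 8901 were higher and 9317 lower, the median was -0.01, and 24.8% had such a p. DESeq2 called 1, also Hoxa11os. Those with a mean of at least 1 FPKM were Hoxa11os, Hotairm1, Gm15050, Gm53, Gm11539 and 4 short RNA genes with few counts (Gm27492, Gm28032, Gm27695 and Mir196a-1). Gm11539, annotated as a processed pseudogene between Hoxb9 and Hoxb13, had 211, 139 and 197 counts against 97, 95 and 144 (log2 fold change 0.63, adjusted p = 0.275 by edgeR). Gm53 had 212, 229 and 553 counts against 212, 153 and 246, highest in Nf2-knockout replicate 3 as the HOXB genes were. Hotair, a non-coding RNA between Hoxc11 and Hoxc12 named after its values were seen, had 8 to 32 counts a library.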

How the data were processed

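Poly(A) RNA-seq of 6 libraries was analysed, 3 Nf2-knockout and 3 control, grouped by sample title. Tools named in the submitters' processing notes, with no role given, were StringTie 1.3.4d, HISAT2 2.0.4, edgeR and cutadapt 1.9. The genome build and the strand setting are not given in the sources used here, and the positions of 37 of the 39 HOX genes equal GENCODE M21 (GRCm38). The authors deposited 1 table with whole-number counts and FPKM values per gene and library. An FPKM of 0.0001 stands at counts of 0 and was read as 0. How the counts were made is not stated, so they may be rounded coverage estimates. Library totals were 50906043 to 63748798 counts, and intervals and tests cover the spread between libraries only.

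From the counts, edgeR 4.0.16 in R 4.3.3 (filterByExpr, TMM factors, quasi-likelihood test on group, two-sided, Benjamini-Hochberg over 18218 genes, threshold 0.05) gave log2 fold changes of Nf2-knockout over control, with SE as the absolute fold change over the root of F. CPM used TMM factors. Levels are FPKM, compared between genes per length. The test was checked on simulated counts. DESeq2 1.42.0, its size factors in edgeR, no count filter, the replicate number as a block, limma 3.58.1 on log2(FPKM + 0.1), with pseudocount 1 and without a filter on low FPKM, and leaving out each library were tried. A median-of-ratios scaling of FPKM was added after seeing the data.

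The members and lists were chosen with earlier results of these data known. HOX genes were given per library at a mean FPKM of at least 1 or past the test, and from other lists those that passed or the 3 highest. Some genes that this rule takes are not reported here. Promoter sequences are from RefSeq (GRCm38.p6).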

Additional observations from a re-analysis of the deposited data

How the results depend on the processing

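The share of HOX groups 9 to 13 moved little, and the number of detected HOX genes depended on the FPKM minimum. Between 14 and 15 HOX genes reached 1 FPKM in all libraries kept when 1 was left out, 16 did at a minimum of 0.5 FPKM and 7 at a minimum of 2, and groups 9 to 13 held 79.4% to 81.8% of the HOX sum in Nf2-knockout libraries and 78.3% to 79.5% in controls. The number of changed HOX genes was 1 in the main test, 3 with DESeq2, 2 with limma on FPKM at pseudocount 0.1 and at pseudocount 1, 0 without the count filter and 0 in each fit without 1 library. Calls over all genes moved too. They numbered 1693 of 18218 in the main test, 2618 with DESeq2 and 1337 of 27103 without the count filter. Limma called 1718 of 14117 at pseudocount 0.1 and 1749 at pseudocount 1, and the fits without 1 library called 629 to 1186. Hoxa11 passed with DESeq2 and with those same limma fits and in no other setting. Of the limb, head and axial factors 4 changed, against 6 with DESeq2 and with limma at either pseudocount, 5 with median-of-ratios scaling, 2 with limma on all FPKM and 1 to 3 without 1 library. Of the regulators (Polycomb, Trithorax, retinoic acid and CDX genes) 4 changed, against 7 with DESeq2 and 1 to 4 without 1 library. Of the other genes in the clusters 0 changed, against 1 with DESeq2. Nf2 kept its direction. It missed the threshold with limma on FPKM (-0.31 at pseudocount 0.1, with or without the filter, and -0.29 at pseudocount 1) and in all 6 fits without 1 library (-0.45 to -0.34). The cause of these differences was not tested.

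Over all tested genes, replicate numbers showed no pairing of the libraries. Whether same-numbered libraries shared a litter or a day is not stated, and these correlations cannot settle it. Same-numbered libraries correlated at -0.09, 0.03 and 0.023 in their deviations from the group means, and not every library correlated best with its own number. With the replicate block, 0 HOX genes, 2 regional factors and 2 regulators changed, and Nf2 stood at -0.41 without passing. Over all genes 923 of 18218 changed with the block. Hoxa9 became 0.0011, Hoxc8 -0.029 and Hoxc9 0.011 with the block.

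Signs turned for several HOX genes, none of them past the threshold. The values for those given per library follow, and among the tested genes of low level Hoxa13, Hoxb4, Hoxb7, Hoxb8, Hoxd3, Hoxd4 and Hoxd11 also turned sign between the fits without 1 library. Hoxa9 was 0.014 with DESeq2 and with its size factors, 0.013 with median-of-ratios scaling, 0.10 with limma on FPKM (0.079 at pseudocount 1) and 0.0030 without the count filter. Hoxc9 was 0.013 with DESeq2, 0.012 with its size factors, 0.023 with median-of-ratios scaling, 0.11 with limma (0.089 at pseudocount 1) and 0.0027 without the count filter. With limma on FPKM, Hoxa10 was 0.012 (0.011 at pseudocount 1), Hoxc4 0.035 (0.024) and Hoxc6 0.025 (0.023). Hoxc8 was -0.010 with median-of-ratios scaling. Without 1 library, Hoxa9 ran from -0.065 to 0.10, Hoxc6 from -0.24 to 0.053, Hoxc8 from -0.24 to 0.46, Hoxc9 from -0.13 to 0.16, Hoxc11 from -0.39 to 0.083 and Hoxd8 from -0.27 to 0.052. The limma fits on deposited FPKM put the median of the genes they tested at 0.07 to 0.09. Depth limits the genes with few counts, most of HOXB among them.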
